A study of Mus musculus with 6 samples.

Results

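The 41 genes described here encode lysosomal proteases and other hydrolases, lysosomal membrane and lipid-handling proteins, the lysosomal regulator TFEB, and proteins of the autophagy pathway. They were matched by gene symbol to the count tables, which list 48577 genes per library, and all 41 were found. All 41 also passed the filter on low counts that left 13175 genes for testing, and every one had reads in every library, so no member entered through one group alone. Ctsc and Dram1 were put on the list because they were lower in tdTomato-positive libraries in an earlier reading of these counts, so their values are a description without a test. The other 39 genes were set beside them to ask whether lysosomal genes as a whole were lower in the tdTomato-positive fraction.

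The lysosome is the acidic compartment in which cells break down proteins, glycans and lipids. Its enzymes work at low pH, its membrane glycoproteins shield the cell from them, and transporters carry the products back to the cytosol. In autophagy, cytoplasm is enclosed in a membrane that carries ATG8 family proteins and is delivered to the lysosome; the transcription factor TFEB is known to switch on many genes of both systems. In lung, alveolar type 2 cells store surfactant in lamellar bodies, which are lysosome-related organelles, and macrophages are rich in lysosomal proteases.

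The comparison was of tdTomato-positive with tdTomato-negative cells, both from C57BL/6 mice that carry Miwi2-tdTomato, a red fluorescent reporter of the gene Piwil4, whose product MIWI2 is a Piwi protein. All samples carry that allele. Lung cells lacking the leukocyte surface protein CD45 and bearing the epithelial surface protein EpCAM were sorted into the 2 fractions from each of 3 mice, which gave 3 tdTomato-positive and 3 tdTomato-negative libraries of amplified total RNA. The labels call both fractions multiciliated and state neither the animals' age or sex nor a gate for cilia.

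The libraries held 5602309 to 5763317 counts in genes in the tdTomato-positive group and 5330584 to 6326395 in the tdTomato-negative group, and mitochondrial ribosomal RNA took 18.6 ± 1.10% of these counts in tdTomato-positive and 30.8 ± 7.48% in tdTomato-negative libraries (SD, n = 3 each). Levels below are CPM, the library's counts scaled to a common depth by the trimmed mean of M values (TMM). On the first principal component the mouse 1 tdTomato-positive library lay at -75.2, far from the other 5, which lay between -8.12 and 34.2. Piwil4, the reported gene, rose by 1.36 ± 0.208 (log2 scale, SE) with an adjusted p of 0.012 in the quasi-likelihood test of edgeR. That call was lost without the tdTomato-positive library of mouse 3 (adjusted p = 0.0752), the tdTomato-negative library of mouse 1 (0.0651) or 2 (0.0663), or any 1 mouse (0.109 to 0.165). Transcripts of tdTomato had 37, 16 and 18 reads in tdTomato-positive libraries and 0 in each tdTomato-negative library. Markers of multiciliated cells summed to 7834 to 8727 CPM in tdTomato-positive and 7933 to 8630 CPM in tdTomato-negative libraries, with all 14 matched markers of 15 listed detected. Single markers moved apart from the sum: Foxj1, the regulator of motile cilia, averaged 514 ± 315 CPM in tdTomato-positive and 246 ± 207 CPM in tdTomato-negative libraries (SD, n = 3 each). None of the 13 tested markers was called without a mouse term. With the mouse as a block, Foxj1 (edgeR adjusted p = 0.000129), Tppp3 (0.000729) and Cfap126 (0.0301) rose, and each was higher in 3 of 3 mice. Their part in the results on the members was not tested. Markers of alveolar type 2 cells summed to 619 to 1426 CPM in tdTomato-positive and 8191 to 8684 CPM in tdTomato-negative libraries, and all 15 had lower means in the tdTomato-positive group. Club and secretory cell markers summed to 8867 to 22330 CPM in tdTomato-positive and 5018 to 8442 CPM in tdTomato-negative libraries. Of these 12 markers 0 were called without a mouse term. The block fit called Scgb1a1, Scgb3a1, Scgb3a2, Cyp2f2, Cbr2, Cyp2a5 and Reg3g higher (edgeR adjusted p under 0.05). It did not call Hp, Muc5b, Muc5ac, Aldh1a1 or Gsta4. In bulk libraries like these, fewer cells of a type and less RNA per cell cannot be told apart.

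The sequences just upstream of the start sites of Dram1, Dram2 and Ctsc are shown because these are the 3 members whose groups did not overlap at a log2 fold change of -1 or below. Each is the 150 bases before the RefSeq start site in GRCm38.p6, written 5′ to 3′ on the strand of the gene. Capitals mark GGGCGG, the core of a GC box, or its reverse complement. Dram1 lies on the minus strand and its stretch at chr10:88357076-88357225 falls in an intron of the longer gene model of GENCODE M21. Dram2, plus strand, is shown at chr3:106547648-106547797, and Ctsc, plus strand, at chr7:88277935-88278084, both upstream of their gene models.
Dram1: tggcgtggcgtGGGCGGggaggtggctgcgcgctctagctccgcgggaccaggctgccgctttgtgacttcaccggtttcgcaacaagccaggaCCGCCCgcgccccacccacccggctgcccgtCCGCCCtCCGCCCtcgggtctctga
Dram2: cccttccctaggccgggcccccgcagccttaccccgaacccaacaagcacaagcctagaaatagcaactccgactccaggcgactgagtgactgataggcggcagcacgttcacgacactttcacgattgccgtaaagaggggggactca
Ctsc: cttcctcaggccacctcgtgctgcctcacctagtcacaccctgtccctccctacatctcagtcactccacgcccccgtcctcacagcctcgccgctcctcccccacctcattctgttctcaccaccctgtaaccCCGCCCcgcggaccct
The G and C content of these stretches was 73.3%, 59.3% and 65.3%. The full RefSeq windows, 250 bases before to 50 bases after the start, held GGGCGG for all 3 genes, and none of the 3 held any of the motifs CACGTG (the E-box), CCAAT (the CCAAT box) and TATAAA (the TATA box) on either strand. For Dram2 the GGGCGG lay outside the printed stretch.

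Lower values in tdTomato-positive libraries were not shared across the lysosomal genes. Of the 39 members not chosen for their fall, 1 gene, Dram2, fell in tdTomato-positive libraries and 0 rose at an adjusted p under 0.05 (edgeR, Benjamini-Hochberg over all genes tested), against a background of 0.577% of all genes tested called lower and 0.0455% called higher. Scaled by library size alone, 0 members were called, with 54 genes lower and 22 higher over the whole table, beside 76 and 6. At an unadjusted p under 0.05, 3 members were lower and 5 higher, against 5.16% and 5.53% of all genes, and DESeq2 called 1 lower and 0 higher, against 1.43% and 0.425%. With the mouse as a block, edgeR again called 1 lower and 0 higher, against 1.79% and 1.36%. A log2 fold change of -1 or below was fitted for 3 members and of 1 or above for 1, against 5.49% and 2.94% of all genes. Log2 fold changes were below 0 for 17 of the 39 and above 0 for 22. Their median was 0.12, beside 0.03 for all genes tested. Within mice 1, 2 and 3 the members' medians of log2(CPM + 0.5) differences were 0.02, 0.03 and 0.33. Those of all genes tested were -0.008, 0.021 and 0.021, so the members' median lay well above that of all genes in mouse 3 only. A log2 fold change within 0.5 of 0 was found for 28 of 39 members (71.8%) and for 70.9% of all genes. The 95% interval lay above -1, a halving of the level, for 29 of the 39, and lay wholly between -1 and 1 for 19. Over all 13175 genes tested the same held for 8842 and 5614, so these counts are not particular to the members.

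**Figure D1:**
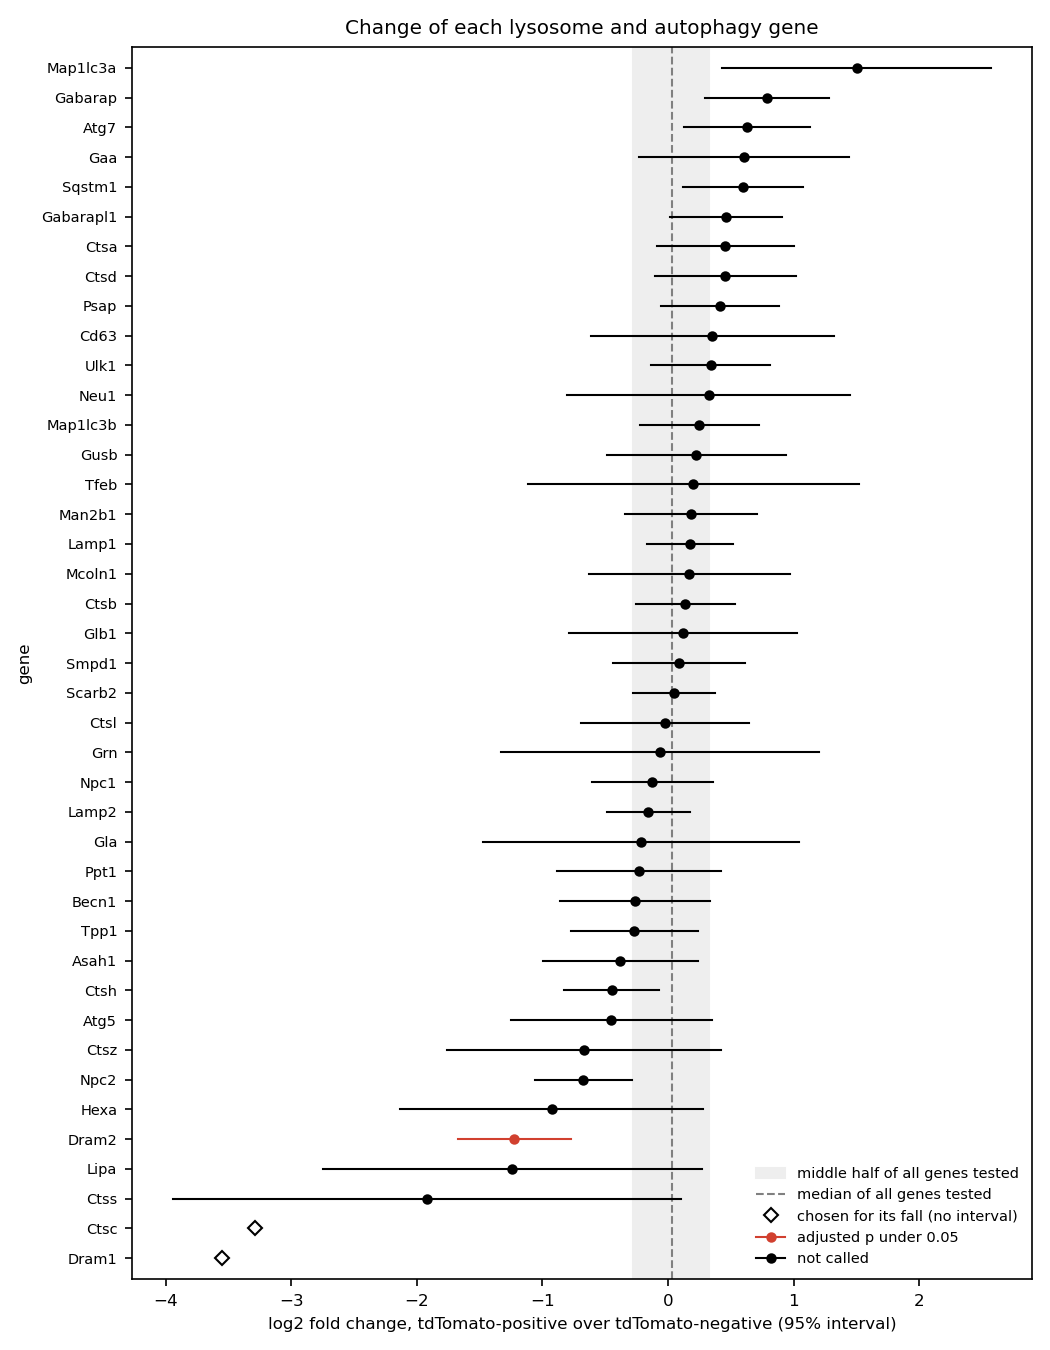
Log2 fold change of each of the 41 genes, tdTomato-positive over tdTomato-negative, on the x axis with its 95% interval; the grey band and dashed line show the interquartile range and median of all 13175 genes tested. Dram1 and Ctsc, drawn as open diamonds without an interval, lie at -3.55 and -3.29, Dram2 is the 1 gene with an adjusted p under 0.05, and 28 of the other 39 genes lie within 0.5 of 0.

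Dram1 encodes a lysosomal membrane protein that p53 induces and that promotes autophagy. The gene spans chr10:88322804-88379080 in GENCODE M21 (GRCm38). Dram1 had 13.0, 17.2 and 11.1 CPM in tdTomato-positive libraries of mice 1, 2 and 3, against 124, 185 and 177 CPM in the tdTomato-negative libraries. The groups did not overlap, every tdTomato-positive library was lower than its partner from the same mouse, and the fitted log2 fold change was -3.55, an 11.7-fold lower level. Dram2, a related DRAM family membrane protein at chr3:106547798-106575890, had 29.6, 30.1 and 31.3 CPM in tdTomato-positive libraries, against 56.8, 76.8 and 78.6 CPM in tdTomato-negative libraries. The 3 tdTomato-positive values lay close together, all below every tdTomato-negative value. Dram2 fell by 1.22 on the log2 scale (SE 0.206, 95% interval -1.67 to -0.77; edgeR adjusted p = 0.024), a 2.33-fold lower level, and was lower in 3 of 3 mice. That call was lost, with adjusted p between 0.0678 and 0.146, on leaving out the tdTomato-positive library of mouse 2 or 3 or the tdTomato-negative library of mouse 2 or 3. It was also lost without any 1 mouse in the fit without a mouse term (edgeR adjusted p 0.074 to 0.335). In the fit with the mouse as a block it was lost without mouse 3 (edgeR adjusted p = 0.198).

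**Figure D2:**
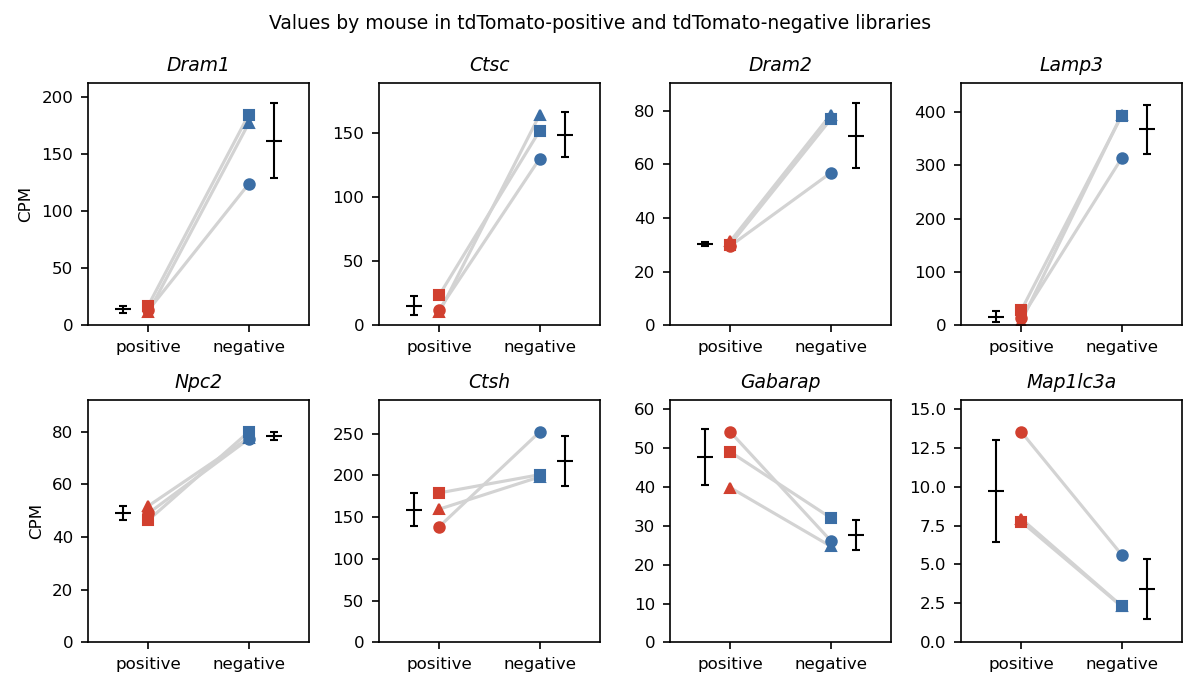
CPM of 8 genes in tdTomato-positive (left, red) and tdTomato-negative (right, blue) libraries, with grey lines joining the libraries of 1 mouse and black bars giving the mean ± SD of 3 libraries; each y axis starts at 0. Dram1, Ctsc, Dram2, Lamp3, Npc2 and Ctsh are lower in every tdTomato-positive library than in its partner, and Gabarap and Map1lc3a are higher.

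The cathepsins, the main proteases of the lysosome, went different ways. Ctsc, which encodes the dipeptidyl peptidase that activates the granule proteases of leukocytes, lies at chr7:88278085-88310888. Ctsc had 12.2, 23.4 and 10.004 CPM in tdTomato-positive libraries, against 130, 152 and 164 CPM in tdTomato-negative libraries, a log2 fold change of -3.29 with no overlap. None of the other 7 cathepsins was called in either direction: 4 had log2 fold changes below 0 and 3 above, with a median of -0.02. Ctsh, an aminopeptidase that takes part in the processing of surfactant protein B in alveolar type 2 cells, had the highest level per kilobase of the group. It had 139, 179 and 160 CPM in tdTomato-positive libraries, against 252, 201 and 198 CPM in tdTomato-negative libraries. Its groups did not overlap, but the log2 fold change of -0.45 ± 0.173 (SE) did not pass the test (edgeR adjusted p = 0.391). The aspartic protease Ctsd and the carboxypeptidase Ctsa, which protects neuraminidase and beta-galactosidase in a complex, had log2 fold changes of 0.45 and 0.46 with adjusted p of 0.563 and 0.552 in edgeR. Ctsb had 0.14, and the endopeptidase Ctsl had -0.02 with a 95% interval of -0.69 to 0.65.

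Ctss encodes the protease that trims the invariant chain in antigen-presenting cells. Its values were 7.60, 8.39 and 7.62 CPM in tdTomato-positive libraries, against 20.0, 65.3 and 4.09 CPM in tdTomato-negative libraries. The tdTomato-negative values spread over more than the whole range of the tdTomato-positive ones, and the log2 fold change of -1.92 ± 0.853 (SE) did not pass the test (edgeR adjusted p = 0.496). It was -1.31 with the mouse as a block, -0.62 without the tdTomato-negative library of mouse 2, and between -2.44 and -0.33 over all alternatives. Leukocyte and macrophage markers varied in the same order among the tdTomato-negative libraries: they summed to 55.6, 68.0 and 33.5 CPM in tdTomato-positive libraries of mice 1, 2 and 3, against 152, 222 and 31.4 CPM in tdTomato-negative libraries. Of the 18 markers 16 had lower means in tdTomato-positive libraries, and Coro1a was at 0 in all 3 of them. The major histocompatibility complex class II genes had another order. They summed to 413, 164 and 193 CPM in tdTomato-negative libraries of mice 1, 2 and 3, lowest in mouse 2, where Ctss was highest. The part of either list in the level of Ctss was not tested. Ctsz, another carboxypeptidase, was low throughout, at 2.37 to 4.76 CPM in tdTomato-positive and 3.90 to 6.01 CPM in tdTomato-negative libraries.

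**Figure D3:**
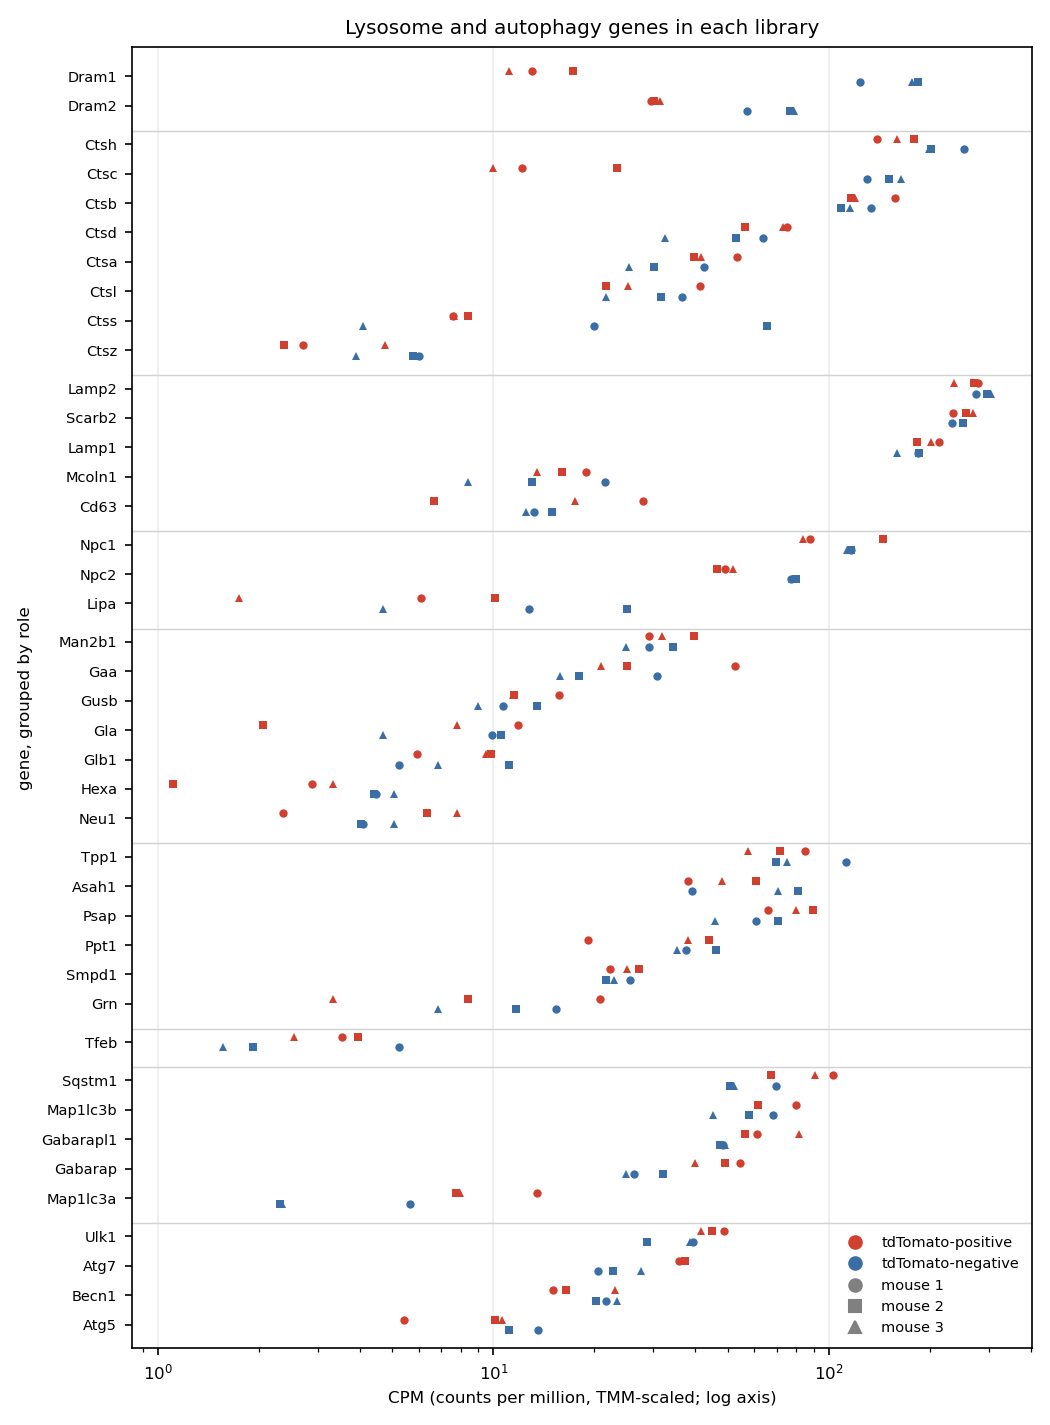
CPM (log axis) of the 41 genes in each library, grouped by role from top to bottom, with red symbols for tdTomato-positive and blue for tdTomato-negative libraries and a symbol shape for each mouse. Red and blue symbols are far apart for Dram1 and Ctsc, apart for Dram2, and mixed or close together for most of the other genes.

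The structural membrane proteins of the lysosome were among the most abundant members and differed little. Lamp1, one of the heavily glycosylated proteins that line the lysosomal membrane, ranked first of the 41 per kilobase of exon, with a mean of 74.4 CPM per kb in tdTomato-positive and 65.9 CPM per kb in tdTomato-negative libraries. It had 213, 183 and 202 CPM in tdTomato-positive libraries, against 184, 185 and 160 CPM in tdTomato-negative libraries. The groups overlapped, and the log2 fold change of 0.18 had a 95% interval of -0.17 to 0.52. Lamp2, its relative that also serves chaperone-mediated autophagy, had a log2 fold change of -0.16 (interval -0.49 to 0.17). Scarb2, the receptor that brings beta-glucocerebrosidase to the lysosome, had 0.04 (interval -0.28 to 0.37). For these 3 genes the interval leaves out both a doubling and a halving. Mcoln1, the calcium channel of the lysosomal membrane, had 0.17 with a wider interval (-0.63 to 0.97) that also leaves out both. Cd63, a tetraspanin of late endosomes, had 0.35 with an interval of -0.61 to 1.32, which holds a doubling. Of the 5 membrane genes 0 were called.

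The 3 genes of cholesterol and neutral lipid handling all had log2 fold changes below 0, and 0 were called. Npc2, the soluble protein that passes cholesterol to the membrane transporter NPC1, lies at chr12:84754562-84773152. It had 49.0, 46.4 and 51.8 CPM in tdTomato-positive libraries, against 77.2, 79.9 and 77.6 CPM in tdTomato-negative libraries. Every tdTomato-positive value lay below every tdTomato-negative one, with little spread in either group. The log2 fold change was -0.67 ± 0.174 (SE), lower in 3 of 3 mice, with an edgeR adjusted p of 0.162. The fit with the mouse as a block gave an edgeR adjusted p of 0.0505, also not called. Lipa, the acid lipase that frees cholesterol and fatty acids from lipoprotein lipids, had 6.08, 10.1 and 1.75 CPM in tdTomato-positive libraries, against 12.8, 24.97 and 4.68 CPM in tdTomato-negative libraries. It was lower in each mouse's tdTomato-positive library, and levels also varied between mice in both groups. Without a mouse term the fitted log2 difference was -1.24 ± 0.676 (SE), with an edgeR adjusted p of 0.556. With the mouse as a block it was -1.25 ± 0.368 (SE), with an edgeR adjusted p of 0.0802. Npc1 had -0.13, with 1 of 3 mice in the opposite direction.

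Of the 7 glycosidases, which remove sugars from glycoproteins and glycolipids, 5 had log2 fold changes above 0 and 2 below, and 0 were called. Gaa, the acid alpha-glucosidase that degrades glycogen, was the most abundant per kilobase. It had 52.4, 24.998 and 21.0 CPM in tdTomato-positive libraries, against 30.7, 18.1 and 15.8 CPM in tdTomato-negative libraries. The 2 libraries of mouse 1 were the highest of their groups, the groups overlapped, and the fitted log2 difference of 0.61 ± 0.380 (SE) had an edgeR adjusted p of 0.603. Without the tdTomato-positive library of mouse 1 it was 0.099, and over all alternatives it ranged from 0.099 to 0.95. Hexa, the alpha subunit of beta-hexosaminidase, had the lowest value of the group, -0.93, from 1.11 to 3.33 CPM in tdTomato-positive and 4.42 to 5.07 CPM in tdTomato-negative libraries. These are low counts, and the 95% interval was -2.13 to 0.28. The remaining 5, Gla, Glb1, Gusb, Man2b1 and Neu1, lay between -0.22 and 0.32.

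Of the 6 enzymes and cofactors that act on sphingolipids or are linked to lipofuscin storage diseases, 4 had log2 fold changes below 0 and 2 above, all within 0.5 of 0, and 0 were called. Psap, the precursor of the saposins that present sphingolipids to their hydrolases, had 66.0, 89.5 and 79.6 CPM in tdTomato-positive libraries, against 60.5, 70.3 and 45.8 CPM in tdTomato-negative libraries. It was higher in 3 of 3 mice although the groups overlapped, and the fitted log2 difference of 0.41 ± 0.213 (SE) had an edgeR adjusted p of 0.536. Asah1, the acid ceramidase, had -0.38, the peptidase Tpp1 had -0.27 and the thioesterase Ppt1 had -0.23. The acid sphingomyelinase gene Smpd1 had 0.09, and Grn, the precursor of the granulins, had -0.06 with an interval of -1.33 to 1.20.

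Tfeb, the gene of the lysosomal transcription factor, was the least abundant member per kilobase. It had 3.55, 3.96 and 2.54 CPM in tdTomato-positive libraries, against 5.24, 1.92 and 1.56 CPM in tdTomato-negative libraries. The groups overlapped, and the log2 fold change of 0.20 had an interval of -1.12 to 1.52, which leaves both a doubling and a halving possible. TFEB is known to bind CACGTG flanked by T and A, and the RefSeq windows of 35 of the 41 members were searched on both strands. The letters CACGTG occurred in 10 of the 35 windows (28.6%), against 8.09% of 27025 genes, and in 28 of 117 windows (23.9%) of other lysosome and autophagy genes. The longer palindrome TCACGTGA, which contains CACGTG, occurred in 4 members (11.4%), Ctsa, Ctsd, Mcoln1 and Gla, against 1.12% of all genes. These shares describe the letters in the windows and show no binding. The sites are printed below with TCACGTGA in capitals, because they are the feature of sequence that these members share and the rule did not use. Coordinates in GRCm38.p6 are chr2:164833749-164833772 and chr2:164833766-164833784 for Ctsa (plus strand), chr7:142387908-142387937 for Ctsd (minus), chr8:3500462-3500491 for Mcoln1 (plus), and chrX:134601215-134601244 and chrX:134601182-134601211 for Gla (minus). The sites of Ctsa, Ctsd and Mcoln1 lie in exons of GENCODE M21 models, and those of Gla lie upstream of its model.
Ctsa, first site: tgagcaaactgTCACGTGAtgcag
Ctsa, second site: gatgcagatgcTCACGTGA
Ctsd: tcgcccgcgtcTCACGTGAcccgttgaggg
Mcoln1: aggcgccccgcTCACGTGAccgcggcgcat
Gla, first site: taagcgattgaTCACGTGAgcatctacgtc
Gla, second site: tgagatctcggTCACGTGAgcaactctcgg
The 10 members with CACGTG had log2 fold changes from -0.45 to 0.63 with a median of 0.17 and 0 called. The 23 members with a window and no CACGTG, Ctsc and Dram1 left out, had a median of 0.09 and 1 called lower, Dram2. GGGCGG occurred in 25 of the 35 windows (71.4%), against 38.2% of all genes, CCAAT in 11 (31.4% against 41.1%) and TATAAA in 3 (8.57% against 15.7%).

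All 5 autophagy receptor and ATG8 genes among the members had log2 fold changes above 0, with a median of 0.60, but 0 were called. Genes of these classes in the wider lists went both ways. The receptors Optn, Tax1bp1 and Nbr1 had -0.66, -0.28 and -0.08, the receptor Calcoco1 had 0.62, and the ATG8 gene Gabarapl2 had 0.12. Map1lc3a, an ATG8 gene of the LC3 branch at chr2:155276297-155278073, had 13.5, 7.75 and 7.94 CPM in tdTomato-positive libraries, against 5.63, 2.31 and 2.34 CPM in tdTomato-negative libraries. The groups did not overlap, and the level was highest in mouse 1 in each fraction. The log2 fold change was 1.501 ± 0.487 (SE, 95% interval 0.43 to 2.57; edgeR adjusted p = 0.292), higher in 3 of 3 mice. Gabarap, of the other ATG8 branch, had 54.2, 49.0 and 39.9 CPM in tdTomato-positive libraries, against 26.2, 32.1 and 24.8 CPM in tdTomato-negative libraries. Its groups did not overlap either, with a log2 fold change of 0.78 ± 0.224 (SE) and an adjusted p of 0.211 in edgeR. The fit with the mouse as a block gave edgeR adjusted p of 0.0607 for Map1lc3a and 0.0577 for Gabarap.

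Gabarapl1 was the most abundant of these genes per kilobase, at 61.1, 56.3 and 81.5 CPM in tdTomato-positive libraries, against 48.3, 47.3 and 49.1 CPM in tdTomato-negative libraries. All tdTomato-positive values were higher, and the fitted log2 difference of 0.46 ± 0.202 (SE) had an edgeR adjusted p of 0.451. Sqstm1, which encodes the cargo receptor p62, had 0.60 (edgeR adjusted p = 0.355, and 0.0869 with the mouse as a block). Map1lc3b, the ATG8 gene whose product is the usual marker of autophagosomes, had 0.25 (edgeR adjusted p = 0.712). The fraction with higher values also had the higher summed level of club and secretory markers and higher means of the multiciliated markers Foxj1, Tppp3 and Cfap126, given above. The part of those markers in the values was not tested.

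Of the 4 genes of autophagosome initiation and conjugation, 2 had log2 fold changes above 0 and 2 below, and 0 were called. Ulk1, the kinase that starts autophagosome formation, had 48.6, 44.8 and 41.4 CPM in tdTomato-positive libraries, against 39.4, 28.6 and 38.6 CPM in tdTomato-negative libraries. All tdTomato-positive values were higher by a small margin, and the fitted log2 difference of 0.34 ± 0.216 (SE) had an edgeR adjusted p of 0.608. Atg7, the activating enzyme of ATG8 conjugation, had 35.8 to 37.2 CPM in tdTomato-positive and 20.6 to 27.5 CPM in tdTomato-negative libraries, and its log2 difference of 0.63 had an adjusted p of 0.347 in edgeR. Atg5, part of the conjugation complex, had -0.45. Becn1, the Beclin 1 subunit of the lipid kinase complex, had -0.26, but 43.9% of its exon bases are shared with Cntd1 on the opposite strand, and the strand setting of the counting is not given in the sources used here. Whether reads from such shared bases were counted for a gene or set aside as ambiguous is therefore not known here. The exon bases of Ctsd, Gabarapl1, Ctsl, Ctsa and Sqstm1 are shared with other genes to 34.4%, 28.3%, 26.8%, 17.4% and 17.3%.

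Groups that did not overlap were as frequent below as above: 5 of the 39 members had all 3 tdTomato-positive values below all 3 tdTomato-negative values (Dram2, Ctsh, Npc2, Hexa and Atg5), and 5 had them above (Map1lc3a, Gabarap, Gabarapl1, Atg7 and Ulk1). Over all genes tested these shares were 9.02% and 8.29%. The 29 lysosomal members without an autophagy role had a median of 0.04, with 14 below 0 and 15 above, and the 9 members of the receptor, ATG8 and initiation groups had a median of 0.46, with 7 above 0. Neither had a called gene. Dram2, which is called and has its own role group with Dram1, is in neither of these counts.

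The 39 members took 0.233 ± 0.00742% of counts in genes in tdTomato-positive and 0.197 ± 0.018% in tdTomato-negative libraries (SD, n = 3 each). With Ctsc and Dram1 added the shares were 0.236 ± 0.00858% and 0.225 ± 0.0156%. After mitochondrially encoded genes, which took more of the tdTomato-negative counts, were left out of the total, the 39 members took 0.296 ± 0.00547% in tdTomato-positive and 0.307 ± 0.0245% in tdTomato-negative libraries, so the order of the groups depends on that choice of total.

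The rest of the pathway was taken from 7 lists of 144 other lysosome and autophagy genes, of which 134 were tested. Of these, 1 fell and 0 rose in edgeR without a mouse term, against 0.577% and 0.0455% of all genes tested. At an unadjusted p under 0.05, 3 were lower and 7 higher, against 5.16% and 5.53% of all genes. DESeq2 called 1 lower and 0 higher, against 1.43% and 0.425%. The median log2 fold change was 0.04, with 62 values below 0 and 72 above. The gene that fell was Lamp3, also known as DC-LAMP, a lysosomal membrane glycoprotein of dendritic cells and of the lamellar bodies of alveolar type 2 cells, at chr16:19653378-19706375. Lamp3 had 13.2, 27.7 and 6.83 CPM in tdTomato-positive libraries, against 313, 393 and 395 CPM in tdTomato-negative libraries. The groups were far apart, and the fitted log2 difference of -4.53 ± 0.470 (SE) had an edgeR adjusted p of 0.006. Without the tdTomato-positive library of mouse 1 it was -4.41 with an adjusted p of 0.109, and without mouse 1 it was -4.53 with an adjusted p of 0.179, so neither passed the test. Lamp3 is itself among the 15 alveolar type 2 markers, 8 of which were called lower. Those markers summed to less in every tdTomato-positive library, so any gene lower in that group shares this pattern. The members lower without overlap were Dram1, Ctsc, Dram2, Npc2, Ctsh, Hexa and Atg5. In tdTomato-positive libraries of mice 1, 2 and 3 the markers summed to 1032, 1426 and 619 CPM. Dram1 and Ctsc had that order and the others did not. In tdTomato-negative libraries the sums were 8684, 8191 and 8534 CPM, an order that none of these members had. The part of alveolar type 2 cells in their values was not tested.

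**Figure D4:**
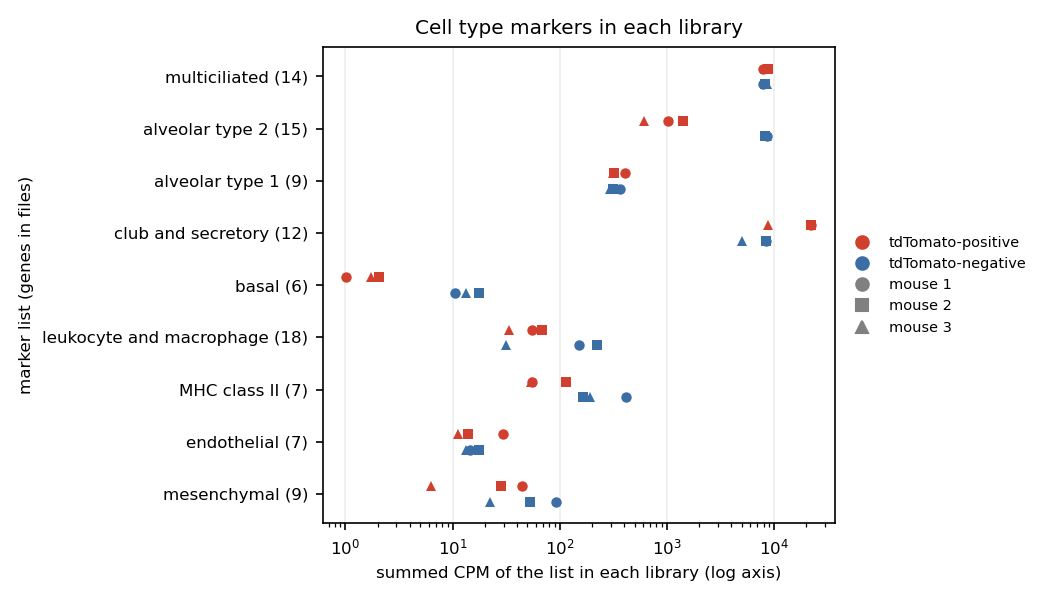
Summed CPM (log axis) of 9 lists of cell type markers in each library, with red symbols for tdTomato-positive and blue for tdTomato-negative libraries and a symbol shape for each mouse. The multiciliated sums overlap at 7834 to 8727 CPM in tdTomato-positive and 7933 to 8630 CPM in tdTomato-negative libraries, and the alveolar type 2 sums are 619 to 1426 CPM in tdTomato-positive and 8191 to 8684 CPM in tdTomato-negative libraries.

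Of the other marker lists, alveolar type 1 markers summed to 317 to 407 CPM in tdTomato-positive and 297 to 367 CPM in tdTomato-negative libraries, with Pdpn at 0 in all 6. Major histocompatibility complex class II genes summed to 53.7 to 115 CPM in tdTomato-positive and 164 to 413 CPM in tdTomato-negative libraries. Basal cell markers summed to 1.01 to 2.06 CPM in tdTomato-positive and 10.5 to 17.7 CPM in tdTomato-negative libraries, with Trp63 and Aqp3 at 0 in all tdTomato-positive libraries. Endothelial markers summed to 11.3 to 29.6 CPM in tdTomato-positive and 13.3 to 17.7 CPM in tdTomato-negative libraries, with Cldn5 at 0 throughout and Ramp2 at 0 in tdTomato-positive libraries. Mesenchymal markers summed to 6.35 to 44.2 CPM in tdTomato-positive and 22.4 to 92.2 CPM in tdTomato-negative libraries.

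No list of the wider pathway had more than 1 called gene. The 22 tested hydrolases and cofactors had a median of 0.20 with 0 called, and the smallest p was that of Gm2a, the activator protein that presents a ganglioside to beta-hexosaminidase. Gm2a had 2.38 to 4.27 CPM in tdTomato-positive and 4.87 to 8.45 CPM in tdTomato-negative libraries, without overlap, and its log2 difference of -0.91 ± 0.460 (SE) had an edgeR adjusted p of 0.532. The 16 tested subunits and accessory proteins of the vacuolar ATPase, the proton pump that acidifies the lysosome, had a median of 0.04 and 0 called. The smallest p among them was that of Atp6ap1, an accessory subunit, at 0.50 ± 0.168 (log2 fold change, SE; edgeR adjusted p = 0.311).

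The 14 tested genes of enzyme sorting had a median of 0.04, and Igf2r, the large mannose 6-phosphate receptor, had 0.54 (edgeR adjusted p = 0.256). The 18 tested genes of other membrane proteins and transporters, Lamp3 included, had a median of -0.19 with 12 below 0. The 29 tested genes of other autophagy steps had a median of -0.06. Of these 29, 3 had non-overlapping groups below (Rb1cc1, Optn and Atg10) and 3 above (Calcoco1, Atg4d and Atg9a). Over all genes tested the shares were 9.02% below and 8.29% above, so such counts are not particular to this list. The smallest p was that of Calcoco1, a receptor of selective autophagy, at 0.62 (edgeR adjusted p = 0.261). Rb1cc1, a subunit of the ULK1 complex, had -0.43 (edgeR adjusted p = 0.355), the receptor Optn had -0.66 (0.436) and Atg10, a conjugating enzyme, had -1.20 (0.534). The 18 genes of nutrient sensing and the TFE factors had a median of 0.12, and the value farthest from 0 was that of Lamtor4, a subunit of the Ragulator complex, at 1.96. Lamtor4 had 14.0, 1.90 and 2.38 CPM in tdTomato-positive libraries, against 2.91, 0.768 and 0.975 CPM in tdTomato-negative libraries. It was higher in 3 of 3 mice, the groups overlapped, and the tdTomato-positive value of mouse 1 was far above the other 2 (edgeR adjusted p = 0.445). The 17 tested genes of late endosomes and fusion had a median of 0.12, and Vps33a, a subunit of the tethering complexes of late endosomes, had 0.58 (edgeR adjusted p = 0.557).

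**Figure D5:**
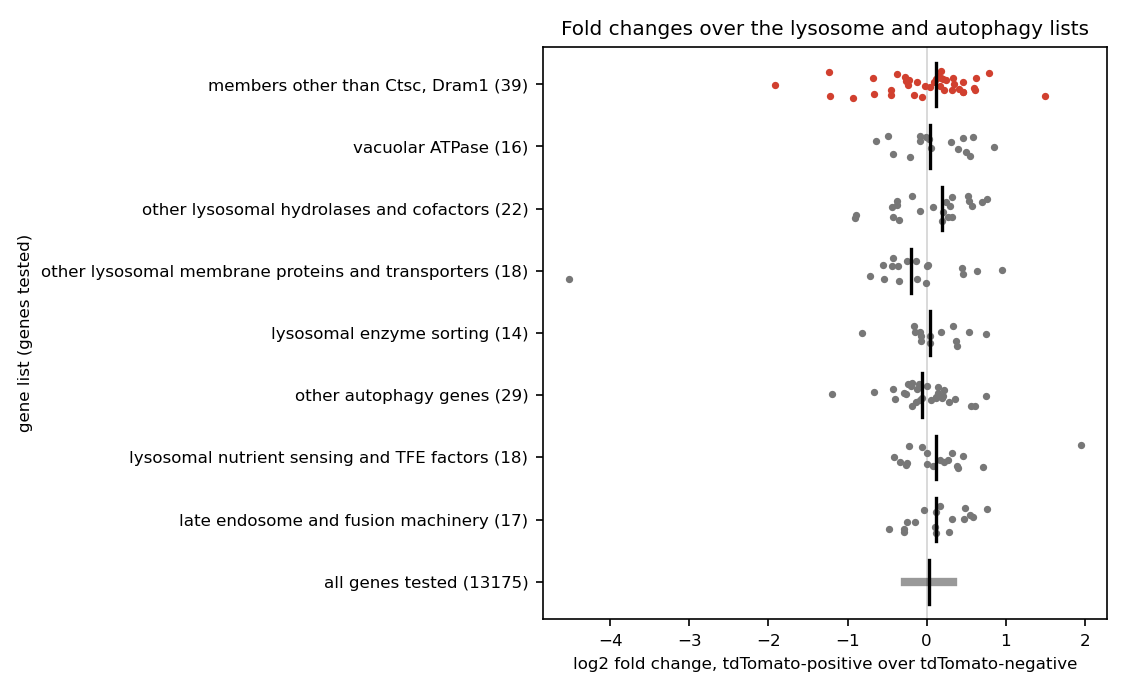
Log2 fold change, tdTomato-positive over tdTomato-negative, of each tested gene (points) by list, with a vertical bar at each list's median and, in the bottom row, the interquartile range and median of all 13175 genes. The medians of the members and of the 7 lists lie between -0.19 and 0.20, and Lamp3 at -4.53 lies far from the rest of its list.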

How the data were processed

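Each library has 1 deposited table of raw counts, with a gene symbol per line. Per the submitters' processing notes the tools were STAR 2.4.2a, cutadapt 1.7.1, HTSeq, FastQC and DESeq2, and the builds mm10 and GRCm38.p4; per the labels' protocols, total RNA was amplified before library making, so counts are not molecules. The 5 summary lines of each table were left out of library sizes; reads assigned to no gene came to 43.8 to 49.4% of a table's total in tdTomato-positive and 41.0 to 49.4% in tdTomato-negative libraries. Genes kept by filterByExpr (count minimum 10), 13175 in all, were scaled by TMM and tested with edgeR 4.0.16 (quasi-likelihood, robust, two-sided) under R 4.3.3, with Benjamini-Hochberg adjustment over all of them and a threshold of 0.05; the SE is the log2 fold change over the square root of F. DESeq2 1.42.0 and limma 3.58.1 were alternatives.

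The libraries are paired, because the labels give both fractions of a number to the same individual. Unless a block is named, the edgeR p-values, SE and 95% intervals are from the fit without a mouse term. Deviations from the group means correlated at 0.254 to 0.348 between libraries of 1 mouse and at -0.216 to -0.0989 between mice. Each group mean was taken over these same libraries, so positive values within a mouse force negative ones between mice. The negative values are therefore no separate sign of pairing. On simulated counts of 12881 genes, the test without the mouse term recovered 58.3% of 4-fold and 1.02% of 2-fold changes, and with it 88.5% and 7.14%. The simulation gave every gene the same preset variability between libraries and between mice, not estimated from these data. Its rates are therefore not those of single members. A missed call alone does not exclude a 2-fold difference, and the 95% intervals show for which members one is left out.

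Gene positions and exon lengths are from GENCODE M21, sequences from RefSeq. The members, the 7 lists and the marker lists were chosen with earlier results of these data known. A further gene of the lists is not reported here and stands in none of their counts. Values in every library were given for Ctsc, Dram1, called members and the most abundant member per kilobase of each of 9 role groups. They were also given for members with non-overlapping groups and an absolute log2 fold change of at least 1. Foxj1, Tppp3, Cfap126, Rb1cc1, Optn, Atg10, Atg4d, Atg9a, Tax1bp1, Nbr1, Gabarapl2 and the single club and secretory markers were added after their values were seen. So were the per-library values of Ctss, Lipa, Gabarap, Lamtor4 and the major histocompatibility complex class II sums, and the ranges of Ctsz, Hexa and Atg7.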

Additional observations from a re-analysis of the deposited data

How the results depend on the processing

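Dram2 was called lower in 12 of 21 alternatives and kept its direction in all 21 (log2 fold change -1.36 to -0.96, adjusted p 4.62e-06 to 0.335). Scaling by library size alone moved the median of all genes to 0.29; with it 0 members were called lower (Dram2 adjusted p = 0.0746), the medians of the 41 and 39 members were 0.35 and 0.38, and uncalled members changed sign: Ctsl 0.22, Lamp2 0.10, Npc1 0.14, Gla 0.027, Ppt1 0.051 and Grn 0.16. Upper quartile scaling gave Scarb2 -0.022. Over the 21 alternatives the median of the 39 members exceeded that of all genes by 0 to 0.25.

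Leaving out 1 library or 1 mouse without a replicate block gave 0 to 1 members and 0 to 1 pathway genes called lower and a median of the 41 members of -0.10 to 0.16. Shares of all genes called in these fits are not given here, so the counts of calls are not set against a background. Piwil4 ranged from 1.19 to 1.47 (adjusted p 0.0198 to 0.165) and tdTomato from 6.93 to 7.69 (0.0745 to 0.256). Uncalled members that changed sign ranged as follows: Ctsb -0.0093 to 0.23, Cd63 -0.20 to 0.82, Ppt1 -0.47 to 0.051, Ctsl -0.35 to 0.20, Gla -0.76 to 0.43, Grn -0.94 to 0.37, Npc1 -0.42 to 0.019, Neu1 -0.011 to 0.68, Glb1 -0.10 to 0.48, Tfeb -0.16 to 0.93, Mcoln1 -0.11 to 0.59 and Smpd1 -0.030 to 0.21.

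The fit with the replicate block changed no call of a member or of a pathway gene reported here. Over all genes it called 236 lower and 179 higher, against 76 and 6 without the block 189 and 56 with DESeq2, 246 and 167 with no expression filter and 54 and 22 with library size alone. With the block and mouse 1 left out, 3 members were called lower and 3 pathway genes higher, and Cd63 was -0.33. The 3 members were Dram2, Ctss (-1.34, edgeR adjusted p = 0.018) and Lipa (-1.36, 0.0496). How many of all genes that fit called is not given here. Its counts are therefore not read as particular to the members or the lists. With the block and mouse 2 left out, Ctsl was 0.20, Gla 0.48, Neu1 -0.029 and Smpd1 -0.03. With the block and mouse 3 left out, 0 members were called lower, Piwil4 was 1.43 and tdTomato 7.62 without passing the threshold, and Cd63 was -0.0046, Glb1 -0.015 and Neu1 -0.036. Leaving mitochondrially encoded genes out of the total gave the shares of 0.296% in tdTomato-positive and 0.307% in tdTomato-negative libraries. The cause of these changes was not tested. With 3 libraries a group and low counts for Tfeb, Hexa, Ctsz and Neu1 (107 to 171 reads over 6 libraries), the 95% interval of each holds a 2-fold change in at least 1 direction.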
